A study of Saccharomyces cerevisiae with 6 samples.

Results

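The general stress and trehalose genes of budding yeast (Saccharomyces cerevisiae) were examined as a set of 32 genes. The set was a named list: the transcription activators Msn2 and Msn4, known targets of these activators, and the genes that make and break down trehalose. A member was measured by a probe set assigned to it and to no other S. cerevisiae gene, and all 32 had exactly 1 such probe set. They were 32 of 5449 genes with a probe set of their own, on arrays with 10928 probe sets in all.

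Transcripts were measured on 6 Affymetrix oligonucleotide arrays hybridised with biotin-labelled total RNA. The OGT2468 group held 3 samples of wild-type yeast in mid-log phase that spent 3 h with the compound OGT2468 at 0.1 µM. The compound's structure and target are not stated in the labels. The DMSO group held 3 samples of the same wild type and growth phase, kept for 3 h with the solvent DMSO at 0.1%. The labels name neither strain background nor medium, and they give no DMSO percentage for the OGT2468 samples. The design text calls the samples biological without saying how they were separated, and p-values measure the spread between these samples.

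The general stress response lets yeast survive many unrelated insults through one shared set of genes. Msn2 and Msn4 are related zinc-finger proteins that protein kinase A holds in the cytoplasm in growing cells. Stress or starvation lets them enter the nucleus and bind the stress response element in front of their targets. One product of the response is trehalose, a sugar of joined glucose units that protects proteins and membranes and serves as a store of carbon.

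The median deposited intensity of the yeast probe sets was 842, 758 and 691 units on the OGT2468 arrays, against 897, 786 and 1150 units on the DMSO arrays. This difference was not larger than the spread between arrays (exact two-sided permutation test, p = 0.2, where the smallest possible p is 0.1). The arrays were brought to a common distribution before testing, so values below are quantile normalised intensities in arbitrary units. Between 95.6% and 97.1% of the yeast probe sets lay above background on each array, background being 21.8 to 25.9 units. The log2 ratio of 3' to 5' probe sets, a measure of RNA integrity, averaged 0.36 in OGT2468 and 0.32 in DMSO for ACT1 (exact p = 0.3). It averaged 1.16 in OGT2468 and 1.12 in DMSO for SPT15 (exact p = 0.8), and 2.16 in OGT2468 and 2.18 in DMSO for SRB4 (exact p = 0.9). In these bulk samples fewer cells with a transcript and less of it per cell cannot be told apart.

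RTC3 and HSP12 rose after OGT2468, 2 of 32 members (6.25%), and no member fell at a limma adjusted p under 0.05. Across the arrays 1.83% of the 8968 tested probe sets, 3470 of them unnamed, were called higher and 0.758% lower. Of the 5449 named genes 2.72% were called higher and 1.1% lower. At an unadjusted limma p under 0.05, 10 members were higher (31.2%) and 3 lower (9.38%), against 10.9% higher and 10.1% lower of the named genes. The members' median log2 change was 0.14 (interquartile range -0.09 to 0.28), and that of all named genes was -0.02 (interquartile range -0.12 to 0.09). Of the members 21 had a positive (65.6%) and 11 a negative fitted change, against 45.2% positive of all named genes. The 11 included SIP18, which was at or below background on all arrays. The sign depended on the scaling: 8 members were positive with no scaling between arrays and 16 with scaling on the hybridization controls. In each of these settings 22 members lay above the median of all named genes.

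RTC3 encodes a small protein linked to RNA metabolism, and it gave the largest change of the 32 members. Its intensity was 748, 655 and 961 units on the OGT2468 arrays, against 177, 169 and 201 units on the DMSO arrays. The lowest OGT2468 array lay far above the highest DMSO array. The means were 788 ± 157 units in OGT2468 and 182 ± 16.9 units in DMSO (SD, n = 3 each). The log2 change was 2.01 ± 0.15 (SE), a 4.02-fold rise on the log2(intensity + 16) scale used for all changes here, with a limma adjusted p of 0.00318. Without any 1 array the adjusted p ranged from 0.00966 to 0.0292.

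HSP12 encodes a small membrane-associated protein that accumulates under many stresses and is a standard reporter of Msn2 and Msn4. It had 2341, 1917 and 2187 units in OGT2468, against 1080, 1250 and 1134 units in DMSO. The groups did not overlap. The log2 change was 0.88 ± 0.10 (SE), or 1.85-fold, with a 95% interval of 0.64 to 1.13 and a limma adjusted p of 0.0118. The adjusted p missed the threshold when OGT2468 replicate 3 (0.0667), DMSO replicate 1 (0.0568) or DMSO replicate 3 (0.0600) was left out. It also missed it with no scaling between arrays (log2 change 0.60, adjusted p = 0.265) and with scaling on the hybridization controls (0.69, adjusted p = 0.0995), and with the replicate number as a block (0.88, adjusted p = 0.108).

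HSP26 encodes a small heat shock chaperone that binds unfolding proteins. It had 335, 336 and 323 units in OGT2468, against 405, 402 and 403 units in DMSO. All 3 OGT2468 arrays were below all 3 DMSO arrays, and after quantile normalisation replicates within each group lay close together. The log2 change was -0.27 ± 0.05 (SE), and the limma adjusted p was 0.0725, which missed the threshold. The deposited intensities spread more, at 329, 307 and 261 units in OGT2468, against 419, 359 and 545 units in DMSO. With no scaling between arrays the change was -0.52 ± 0.20 (SE, limma adjusted p = 0.304).

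The groups did not overlap for 14 members: 11 were higher in OGT2468 (34.4%, against 15.5% of the named genes) and 3 were lower (9.38%, against 16.4%). The 11 were RTC3, HSP12, DDR2, NQM1, CTT1, GLK1, UBI4, MSN2, PNC1, GRE3 and NTH1, and the 3 were HXK1, RTN2 and HSP26. With no scaling between arrays the changes of MSN2, UBI4, PNC1, GRE3 and NTH1 were slightly negative. In the deposited intensities the groups of these genes overlapped, and so did those of DDR2, NQM1, CTT1 and GLK1. Of the 14, only RTC3, HSP12, HXK1, RTN2 and HSP26 stayed without overlap there. The plots of intensity by array show these 14 genes.

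**Figure D1:**
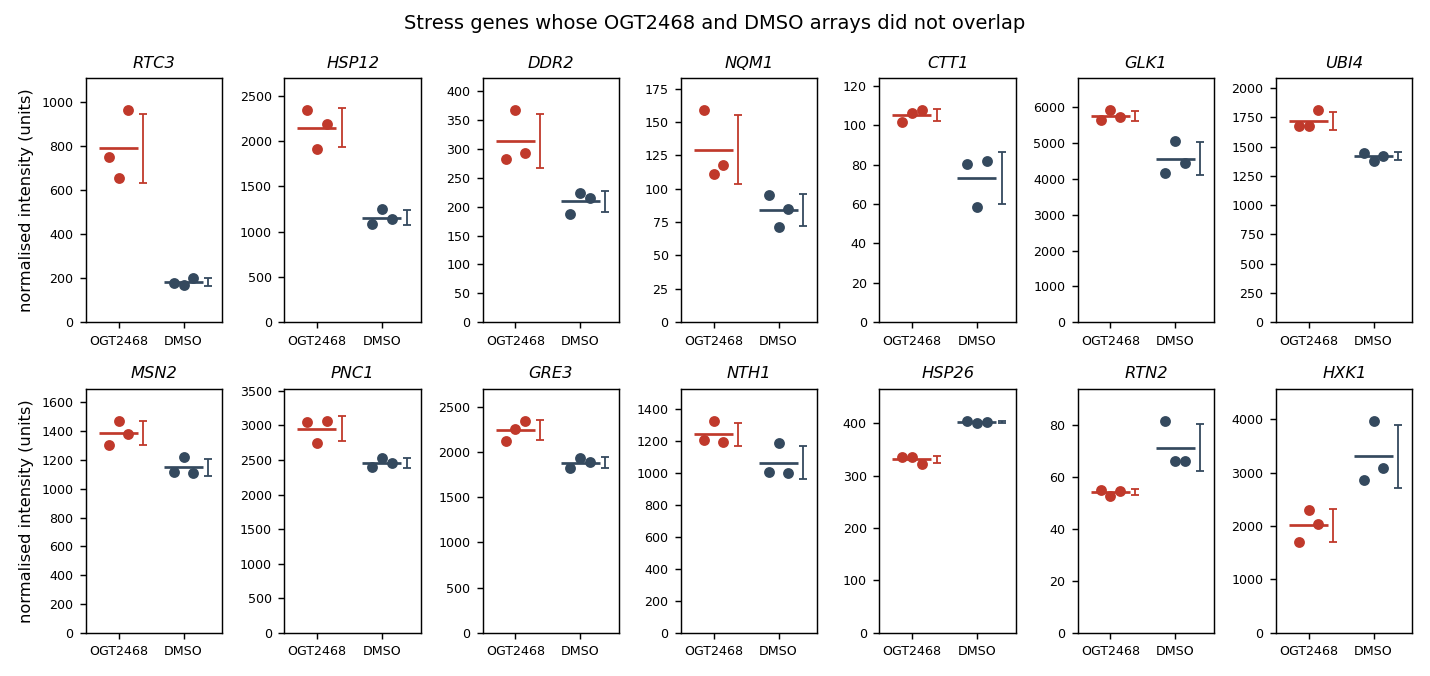
Normalised intensity of the 14 members whose OGT2468 and DMSO arrays did not overlap, on linear axes from 0. Points are arrays, horizontal bars are group means and whiskers are the SD of 3 arrays. RTC3 has 748, 655 and 961 units in OGT2468 against 177, 169 and 201 units in DMSO, the widest separation of the 14 as a ratio of means.

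The activators themselves were measured next. MSN2 had 1307, 1471 and 1380 units in OGT2468, against 1117, 1219 and 1113 units in DMSO. MSN4 had 388, 519 and 436 units in OGT2468, against 471, 452 and 515 units in DMSO. The MSN2 arrays did not overlap and the MSN4 arrays did. The MSN2 change was 0.27 ± 0.07 (SE, limma adjusted p = 0.153) and the MSN4 change -0.10 ± 0.12 (adjusted p = 0.727). The changes of these paralogs differed by 0.37 ± 0.11 (SE), with an exact two-sided permutation p of 0.1, the smallest possible, and 0.25 after adjustment over 5 pairs.

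The trehalose genes came next by role. Tps1 makes trehalose 6-phosphate, Tps2 removes the phosphate, and Tps3 and Tsl1 are regulatory subunits of the same complex. None of the 4 was called, and all 4 overlapped between groups. TPS2 had 976, 1172 and 1044 units in OGT2468, against 769, 1071 and 770 units in DMSO, a log2 change of 0.30 ± 0.15 (SE, limma adjusted p = 0.401). TPS1 had 1729, 2028 and 2016 units in OGT2468, against 1498, 1859 and 1531 units in DMSO, a change of 0.24 ± 0.11 (adjusted p = 0.368). In both genes DMSO replicate 2 lay above OGT2468 replicate 1.

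The estimates for the regulatory subunits were close to 0. TPS3 had a log2 change of -0.05 ± 0.11 (SE), with a 95% interval of -0.31 to 0.21, and TSL1 one of 0.00 ± 0.17, with an interval of -0.40 to 0.41. TSL1 had 652, 837 and 667 units in OGT2468, against 637, 888 and 643 units in DMSO, so its replicates spread over a wider range than the groups differed. The difference between the TPS3 and TSL1 changes was -0.06 ± 0.16 (exact two-sided permutation p = 0.8, adjusted 0.8).

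Trehalases split trehalose into glucose: Nth1 and Nth2 are the neutral enzymes of the cytosol, and Ath1 is the acid enzyme. NTH1 had 1208, 1328 and 1199 units in OGT2468, against 1008, 1188 and 1004 units in DMSO. Its groups did not overlap, by a narrow margin, and its log2 change was 0.22 ± 0.09 (SE, limma adjusted p = 0.307). NTH2 had a change of 0.14 ± 0.20 (adjusted p = 0.776) and ATH1 one of -0.14 ± 0.15 (adjusted p = 0.719), and both overlapped. The NTH1 and NTH2 changes differed by 0.08 ± 0.19 (exact p = 0.7, adjusted 0.8).

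Replicate 2 stood high within each group for these 7 trehalose genes. OGT2468 replicate 2 was the highest OGT2468 array for 6 of 7, the exception being NTH2, and was so for 32.3% of all named genes. DMSO replicate 2 was the highest DMSO array for 6 of 7, the exception being TPS3, and was so for 36.3% of all named genes. Across all 32 members, these 7 included, replicate 2 was highest for 15 (46.9%) in OGT2468 and 18 (56.2%) in DMSO. Without OGT2468 replicate 2, the log2 changes were 0.20 for TPS1, 0.23 for TPS2, -0.15 for TPS3, -0.11 for TSL1, 0.17 for NTH1, 0.085 for NTH2 and -0.24 for ATH1. Without DMSO replicate 2, they were 0.34 for TPS1, 0.45 for TPS2, -0.05 for TPS3, 0.15 for TSL1, 0.30 for NTH1, 0.28 for NTH2 and -0.0046 for ATH1. None of these was called. What set replicate 2 apart was not tested.

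**Figure D2:**
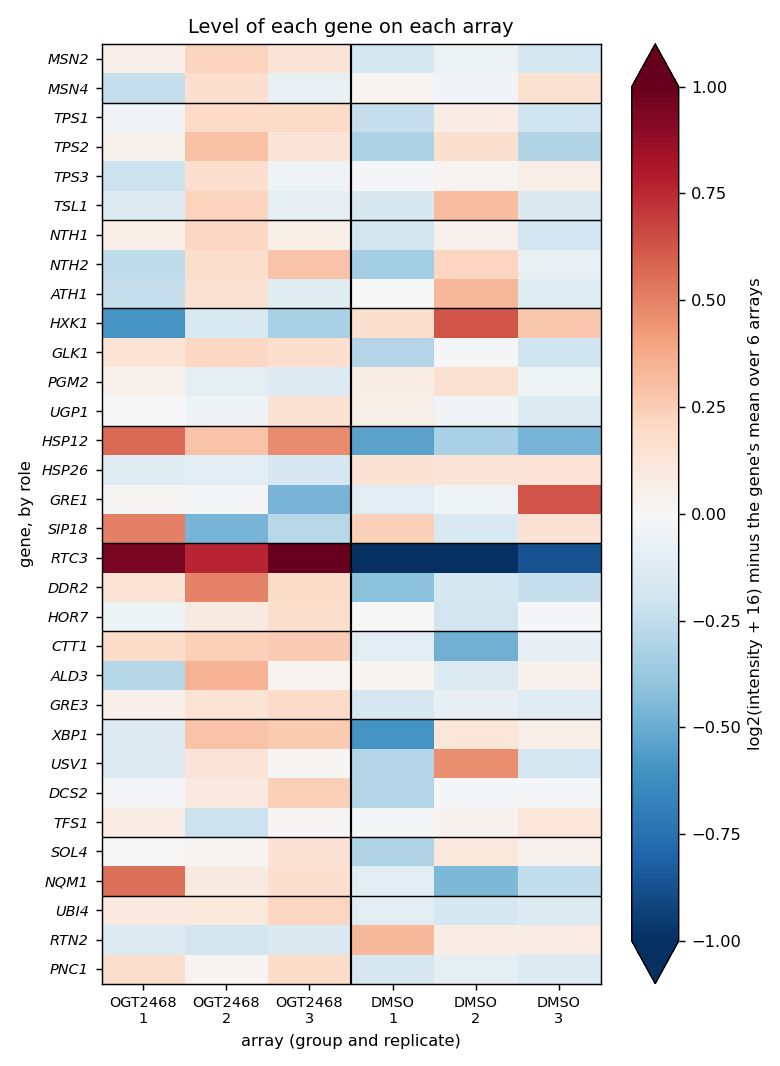
Level of each of the 32 members on each array, as log2(intensity + 16) minus the gene's mean over 6 arrays; red is above and blue below that mean, and horizontal lines part the roles. The OGT2468 columns are left of the DMSO columns. RTC3 and HSP12 are red on all 3 OGT2468 arrays, HXK1 is blue there, and several trehalose genes are reddest on replicate 2 of each group.

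Glucose enters trehalose after phosphorylation, by hexokinases or glucokinase, and through the activated sugar UDP-glucose. The 2 kinase genes of the list had changes of opposite sign. HXK1, which encodes hexokinase isoenzyme 1, had 1696, 2303 and 2032 units in OGT2468, against 2859, 3967 and 3085 units in DMSO. GLK1, which encodes glucokinase, had 5640, 5924 and 5746 units in OGT2468, against 4180, 5068 and 4456 units in DMSO. Every OGT2468 array lay below the DMSO arrays for HXK1 and above them for GLK1.

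HXK1 had the most negative change of the members, -0.71 ± 0.16 (SE, 95% interval -1.11 to -0.30), and a limma adjusted p of 0.106. GLK1 had a change of 0.34 ± 0.09 (SE) and an adjusted p of 0.128. Neither passed the threshold. Downstream, PGM2, the major phosphoglucomutase gene, had a change of -0.12 ± 0.08 (adjusted p = 0.530) and UGP1, which encodes the enzyme that makes UDP-glucose, one of 0.07 ± 0.08 (adjusted p = 0.742).

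The other small stress proteins were DDR2 and HOR7, related genes induced by DNA damage and by high osmolarity. DDR2 had 282, 368 and 293 units in OGT2468, against 188, 224 and 216 units in DMSO. Its groups did not overlap, and its log2 change was 0.55 ± 0.12 (SE, limma adjusted p = 0.0970). HOR7 overlapped, with a change of 0.14 ± 0.09 (adjusted p = 0.497). The DDR2 and HOR7 changes differed by 0.40 ± 0.16 (exact two-sided permutation p = 0.1, the smallest possible, adjusted 0.25).

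Among defences against oxidants and reactive aldehydes, CTT1 encodes cytosolic catalase, which breaks down hydrogen peroxide. CTT1 had 102, 106 and 108 units in OGT2468, against 80.2, 58.2 and 81.7 units in DMSO, with no overlap and a log2 change of 0.45 ± 0.12 (SE, limma adjusted p = 0.137). GRE3, an aldose reductase gene, did not overlap either, at 0.25 ± 0.07 (adjusted p = 0.135). ALD3, an aldehyde dehydrogenase gene, was near background, with 24.2, 46.5 and 34.1 units in OGT2468 and 33.7, 28.6 and 34.2 units in DMSO, and was not called (adjusted p = 0.902).

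In the pentose phosphate pathway, NQM1, a transaldolase gene, had 159, 111 and 118 units in OGT2468, against 95.2, 71.6 and 85.0 units in DMSO. The groups did not overlap, and the change was 0.53 ± 0.15 (SE, limma adjusted p = 0.158). SOL4, which encodes a 6-phosphogluconolactonase, had a change of 0.11 ± 0.12 (adjusted p = 0.709) and overlapped.

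The regulators on the list gave no call, and all 4 overlapped between groups. XBP1, a stress-induced repressor of transcription, had the most positive change of them, 0.28 ± 0.22 (SE, limma adjusted p = 0.603). DCS2, a stress-induced relative of the decapping scavenger enzyme, had a change of 0.22 ± 0.11 (adjusted p = 0.409). The zinc-finger gene USV1 was at 0.00 ± 0.21 (adjusted p = 0.999) and TFS1, an inhibitor of carboxypeptidase Y, at -0.09 ± 0.09 (adjusted p = 0.689).

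The groups did not overlap for UBI4, PNC1 and RTN2. Of all named genes 15.5% were higher and 16.4% lower without overlap. UBI4, the polyubiquitin gene that supplies ubiquitin under stress, had 1673, 1676 and 1812 units in OGT2468, against 1450, 1380 and 1421 units in DMSO (log2 change 0.28 ± 0.06, limma adjusted p = 0.102). PNC1, a nicotinamidase gene of the NAD salvage pathway, had a change of 0.26 ± 0.07 (adjusted p = 0.137). RTN2, a reticulon gene of the endoplasmic reticulum, was lower, with 55.0, 52.9 and 54.7 units in OGT2468 and 81.7, 66.2 and 66.3 units in DMSO (-0.31 ± 0.09, adjusted p = 0.149).

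The hydrophilins GRE1 and SIP18, paralogs induced by drying and high osmolarity, were dim. GRE1 had 37.3, 36.2 and 22.3 units in OGT2468, against 33.1, 35.5 and 66.0 units in DMSO, and was not called (adjusted p = 0.567). SIP18 did not exceed background on any of the 6 arrays, so no fold is given for it and the comparison within this pair is not read.

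**Figure D3:**
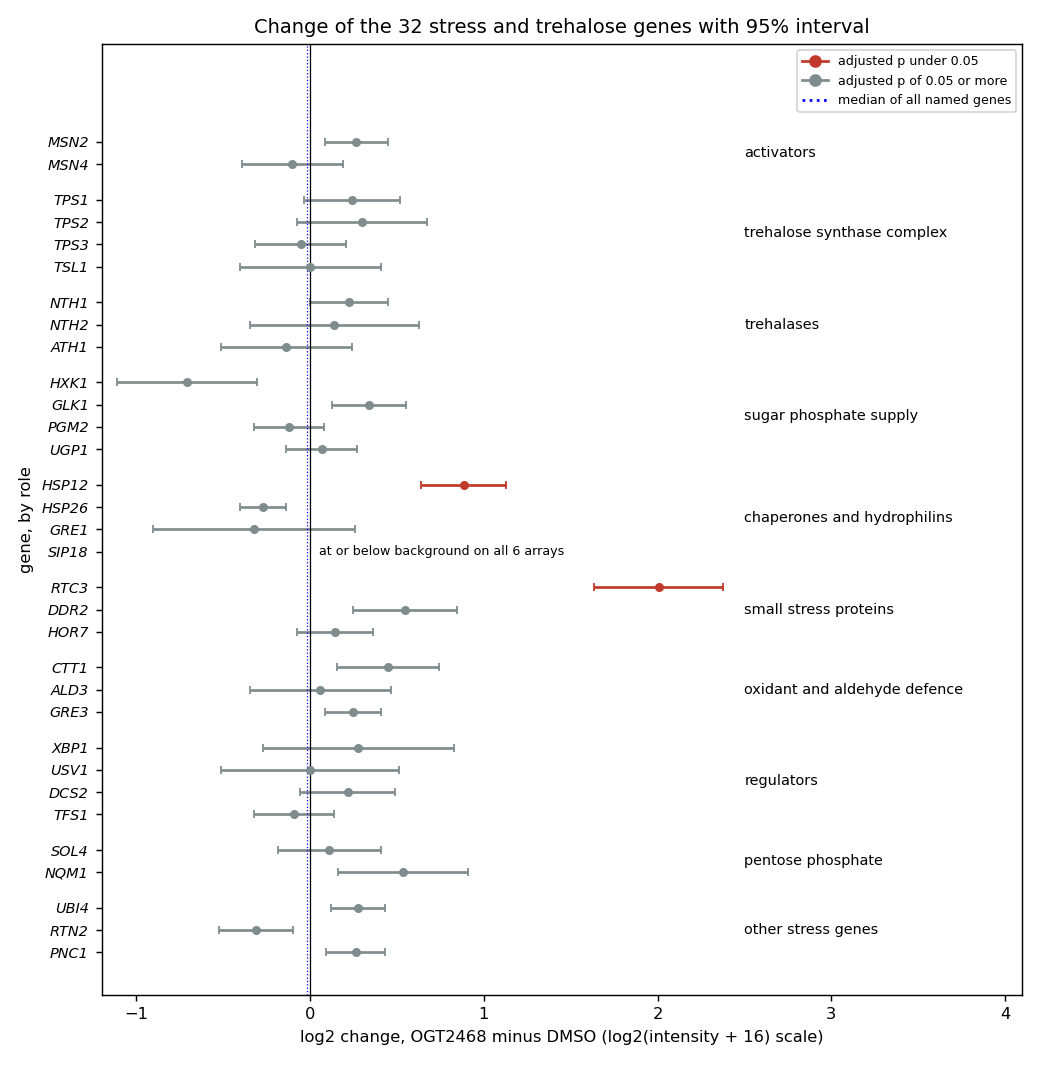
Log2 change, OGT2468 minus DMSO, of the 32 members by role, with 95% intervals from limma; red marks RTC3 and HSP12, the 2 called members, grey the others, and the dotted line is the median of all named genes (-0.02). SIP18 has no point because it was at or below background on all 6 arrays. HXK1 lies furthest to the left at -0.71.

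The number of members called depended on which probe sets entered the test. Each smaller set was refitted, so the spread estimates and the p-value adjustment changed with it, and for the named probe sets the normalisation as well. Of the 8968 tested probe sets 3086 were at or below background on all 6 arrays, and 2958 of those had no gene name here. Whether the unnamed probe sets belong to S. cerevisiae is not known here. With the 5498 probe sets of 1 S. cerevisiae gene tested alone, 8 members were called higher (25%) and 2 lower (6.25%), against 5.93% higher and 3.69% lower of all probe sets in that test. The 8 were RTC3, HSP12, UBI4, DDR2, GLK1, GRE3, CTT1 and PNC1, and the 2 were HSP26 (limma adjusted p = 0.0186) and HXK1 (adjusted p = 0.0343). With only the probe sets at background removed, RTC3, HSP12, UBI4 and DDR2 were called higher and HSP26 and HXK1 lower, of 31 members tested, against 4.88% higher and 2.96% lower of 5882 probe sets.

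The scaling of the arrays also moved the set. With no scaling between arrays the median change of the members was -0.09 and that of all named genes -0.27. With scaling on 18 hybridization control probe sets the medians were -0.00 for the members and -0.18 for all named genes. The members' median lay 0.16 above that of all genes after quantile normalisation, 0.19 above it with no scaling and 0.18 above it with control scaling. RTC3 was called under all 14 alternatives run, with changes between 1.74 and 2.13.

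**Figure D4:**
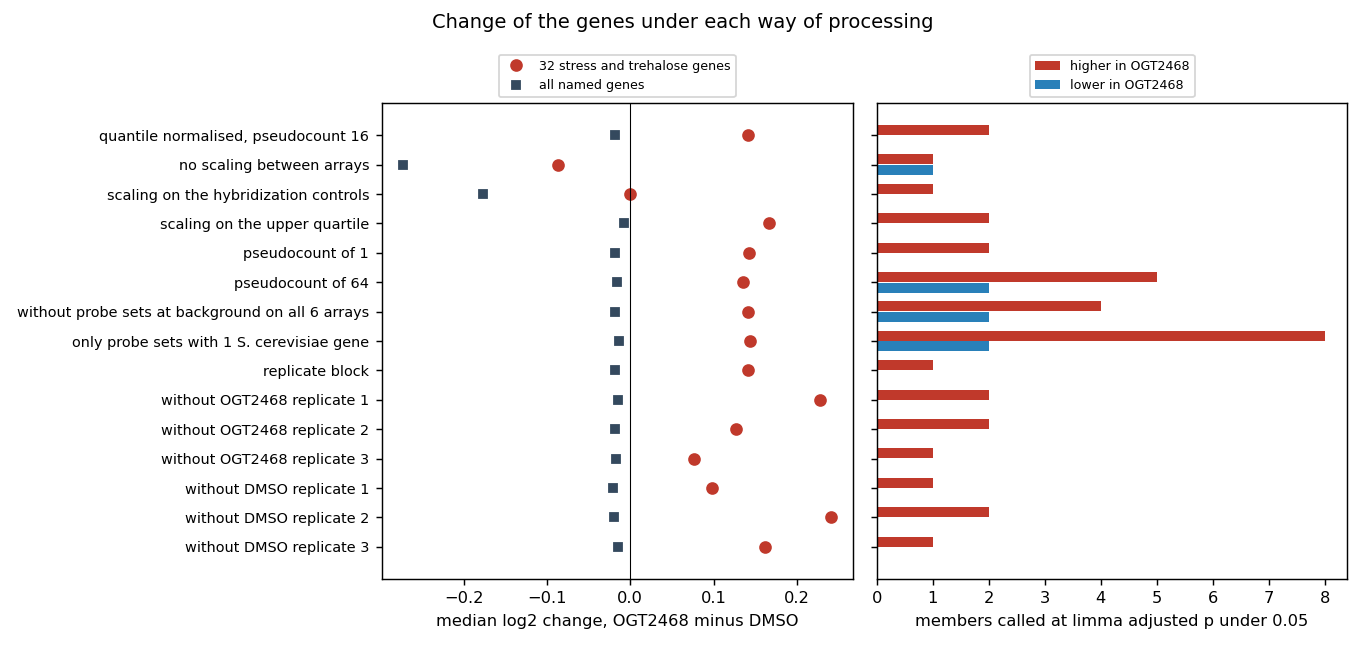
Left, median log2 change (OGT2468 minus DMSO) of the 32 members (circles) and of all named genes (squares) under each way of processing; right, number of members called higher or lower at a limma adjusted p under 0.05. The circles lie right of the squares under no scaling and control scaling as well, and testing only probe sets with 1 S. cerevisiae gene gives 8 higher and 2 lower.

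Paralogs of the members that are outside the set gave no call among 11 measured, where 2.72% of all named genes were called higher and 1.1% lower. At an unadjusted limma p under 0.05, 1 of them, PGM1, was higher (9.09%). Of all named genes 10.9% were higher and 10.1% lower at that threshold, so these partners did not exceed the share over all genes. HXK2, the main hexokinase gene during growth on glucose and the partner of HXK1, had a log2 change of 0.00 ± 0.06 (SE), beside -0.71 for HXK1. EMI2, the partner of GLK1, was at 0.05, PGM1, the partner of PGM2, at 0.18, and TAL1, the partner of NQM1, at 0.05. ALD2, RTN1 and YLR179C, the partners of ALD3, RTN2 and TFS1, lay at 0.06, 0.03 and 0.00. DCS1, SOL3 and RGM1, the partners of DCS2, SOL4 and USV1, lay at -0.04, -0.09 and -0.13, and YHL012W, the partner of UGP1, at -0.65 ± 0.27 (limma adjusted p = 0.306). YHL012W was dim, with 37.0, 9.6 and 14.2 units in OGT2468, against 40.7, 36.8 and 37.2 units in DMSO, and was above background on 1 of the 3 OGT2468 arrays. Its change ranged from -1.10 to -0.29 over the alternatives, and it was called lower without OGT2468 replicate 1 (-0.98, adjusted p = 0.0285).

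A further list of 44 measured targets of Msn2 and Msn4 outside the set had 5 genes called higher (11.4%, against 2.72% of all named genes) and 1 lower (1.1% of all named genes were lower), with a median log2 change of -0.04 (20 positive and 24 negative). AMS1, the vacuolar alpha-mannosidase gene, rose by 1.09 ± 0.09 (SE, limma adjusted p = 0.00386), with 322, 301 and 361 units in OGT2468, against 157, 138 and 143 units in DMSO. GPH1, the glycogen phosphorylase gene, fell by 1.31 ± 0.11 on the log2 scale (adjusted p = 0.00411), with 135, 123 and 114 units in OGT2468, against 290, 334 and 370 units in DMSO. The groups of both genes lay far apart. PRB1, encoding vacuolar proteinase B, rose by 0.80 (adjusted p = 0.00892), GPD1, which encodes a glycerol 3-phosphate dehydrogenase of glycerol synthesis, by 0.89 (0.0203), STF2 by 0.63 (0.0222) and PHM7 by 0.74 (0.0317). Leaving out 1 array at a time left between 1 (without DMSO replicate 3) and 4 (without DMSO replicate 2) of this list called higher, and 2 without each of the other 4 arrays. AMS1 and GPH1 were called without any 1 array. AMS1 missed the threshold with no scaling (adjusted p = 0.0671), and with the replicate number as a block none of the 6 genes was called (AMS1 adjusted p = 0.0527, GPH1 0.0748).

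Of 24 measured genes, of 25 listed, that control Msn2 and Msn4 through Ras, protein kinase A, Snf1 and TOR, limma called 0. At an unadjusted limma p under 0.05 there were 4, with 2 higher (8.33%) and 2 lower (8.33%). Of all named genes 10.9% were higher and 10.1% lower at that threshold, so the list did not exceed the share over all genes. The lowest p-values belonged to RAS1, a Ras GTPase gene, at -0.27 ± 0.06 (SE, adjusted p = 0.110), and YAK1, the gene of a kinase that acts opposite to protein kinase A, at 0.25 ± 0.07 (adjusted p = 0.148). RAS1 was called lower with a pseudocount of 64 (adjusted p = 0.0371), without probe sets at background (0.0411) and with named probe sets alone (0.0338). Of 13 genes of glucose exhaustion and stationary phase, HXT5, a hexose transporter gene, rose by 0.60 ± 0.06 (adjusted p = 0.0105) and SPG5, a stationary-phase gene, by 0.56 ± 0.10 (adjusted p = 0.0467), and none fell. The 2 genes were 15.4% of this short list, against 2.72% higher and 1.1% lower of all named genes. HXT5 had 96.5, 87.7 and 87.8 units in OGT2468, against 53.4, 56.8 and 52.9 units in DMSO. HXT5 kept its call when any 1 of 4 arrays was left out and lost it without DMSO replicate 1 (0.0561) or DMSO replicate 3 (0.0600). It also lost it with no scaling (adjusted p = 0.345), control scaling (0.122) and the replicate block (0.0866). SPG5 lost its call without any 1 array, with no scaling (0.480), control scaling (0.295), upper quartile scaling (0.123), a pseudocount of 1 (0.0860) and the replicate block (0.166).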

How the data were processed

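Total RNA from 3 OGT2468 and 3 DMSO samples was labelled and put on Affymetrix arrays, as the labels' protocols state. The authors deposited 1 linear intensity per probe set and array. The submitters' processing notes name GCRMA without a version. Distributions of the deposited intensities differed between arrays, and no source used here tells how probes were summarised. Because no sequence table was at hand, the planned promoter search was not run.

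The intensities of 8968 probe sets were quantile normalised, which removes any difference in total RNA. Left out were 213 platform controls and 1747 probe sets annotated to a gene outside the S. cerevisiae reference, taken as another species. The 3470 unnamed probe sets stayed in without their species being known, and 2958 of them were at or below background on all 6 arrays. Changes are on the log2 scale after adding a pseudocount of 16, which understates changes of dim genes. Background was set per array at percentile 98 of the 1747 probe sets taken as another species. OGT2468 was tested against DMSO by limma 3.58.1 (lmFit, eBayes; R 4.3.3), with Benjamini-Hochberg adjustment over 8968 probe sets and calls at 0.05. Names came from GEO's platform annotation, updated against 6477 RefSeq genes, giving 5498 with 1 S. cerevisiae gene and 3470 unnamed. All 32 members and all their paralog partners were named, and from each other list the genes called, up to 6 by p, or the 2 with the lowest p. Paralog pairs were compared by exact two-sided permutation tests, which cannot go below 0.1 with 3 arrays a group. The limma fit was tested on simulated log2 values with known changes. The scaling, the background and the permutation tests were not part of that check. Precision is limited by the number of arrays. The members, the 4 further lists and their tests were chosen with earlier results of these data known. Alternatives changed the scaling, the pseudocount (1 or 64), the filter on dim or unnamed probe sets, the replicate block and the arrays included. The same alternatives for the further lists were added after seeing the data.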

Additional observations from a re-analysis of the deposited data

How the results depend on the processing

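The 2 members called higher became 1 with no scaling between arrays, 1 with control scaling, 5 with a pseudocount of 64, 4 without probe sets at background, 8 with only probe sets of 1 S. cerevisiae gene, 1 with the replicate block, and 1 to 2 without 1 array. The 0 members called lower became 1 with no scaling and 2 under each of the pseudocount of 64, the background filter and the named probe sets alone. The members' median change was -0.086 with no scaling, -0.0004 with control scaling and 0.077 to 0.24 without 1 array. The 232 probe sets called in all became 66, 101, 479, 461, 529 and 41 under no scaling, control scaling, a pseudocount of 64, the background filter, named probe sets alone and the replicate block, and 89 to 131 without 1 array. Calls were 164 higher and 68 lower, against 22 and 44 with no scaling and 46 and 55 with control scaling. Same-numbered arrays correlated at 0.062, 0.044 and 0.009 in their deviations, and arrays of different number at -0.062 to 0.014. The correlations were small, yet 5 of 6 arrays correlated best with their own number. Whether the replicate numbers pair the arrays is not settled by these values. Of the further Msn2/Msn4 targets, 5 were called higher and 1 lower, against 0 and 2 with no scaling, 1 and 2 with control scaling, and 0 and 0 with the replicate block. The counts were 5 and 2 with a pseudocount of 64, 6 and 2 with the background filter, and 6 and 3 with named probe sets alone.

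With no scaling, which shifted the median of all named genes to -0.27, the change turned negative for MSN2 (-0.020), TPS1 (-0.050), TSL1 (-0.28), NTH1 (-0.064), NTH2 (-0.13), UGP1 (-0.18), HOR7 (-0.056), ALD3 (-0.11), GRE3 (-0.044), DCS2 (-0.061), SOL4 (-0.14), UBI4 (-0.0058), PNC1 (-0.027), YAK1 (-0.018), PGM1 (-0.11), TAL1 (-0.14), ALD2 (-0.20), RTN1 (-0.19), EMI2 (-0.22), HXK2 (-0.18) and YLR179C (-0.22). With control scaling it turned negative for TSL1 (-0.18), NTH2 (-0.032), UGP1 (-0.083), ALD3 (-0.038), SOL4 (-0.048), PGM1 (-0.013), TAL1 (-0.043), ALD2 (-0.11), RTN1 (-0.088), EMI2 (-0.13), HXK2 (-0.084) and YLR179C (-0.12). TSL1 was -0.0065 and USV1 0.025 with upper quartile scaling, and USV1 was 0.0046 with a pseudocount of 1 and 0.0053 with named probe sets alone. Without 1 array, changes ranged from -0.027 to 0.11 for ALD2, -0.10 to 0.22 for ALD3, -0.037 to 0.16 for EMI2, -0.026 to 0.040 for HXK2, -0.0094 to 0.049 for RTN1, -0.015 to 0.19 for SOL4, -0.15 to 0.037 for TPS3, -0.11 to 0.15 for TSL1, -0.15 to 0.23 for USV1 and -0.032 to 0.051 for YLR179C. No gene was called in a setting that turned its sign. The cause was not tested. Of 434 values of the members other than SIP18 under alternatives, 380 kept direction and side of the threshold, 6 lost a call, 18 gained one and 30 changed sign. Averaging a gene's probe sets was not run, because each member had 1. Changes smaller than the spread of 3 arrays a group, and genes near background such as SIP18, GRE1 and ALD3, are not resolved at this array number and signal.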
